A study of Mus musculus with 19 samples.

Results

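The comparison described here was between *PARK7*/DJ-1 KO and wildtype mice that received saline instead of lipopolysaccharide (LPS), so that it reads CD11b+ brain cells at baseline. It held 5 KO and 4 wildtype mice, which are 9 of the 19 libraries of the series, chosen by the genotype and treatment in the labels. The study asked how the loss of DJ-1 changes microglia, the resident macrophages of the brain, with and without systemic inflammation. All 9 mice were males of 3 to 4 months, and their brains were taken 6 h after an intraperitoneal injection of PBS. The KO mice carried the gene trap allele B6;129P2-Park7Gt(XE726)Byg/Mmucd on a C57BL/6NCrl background, and the wildtype mice were littermates from heterozygous breeding. The KO group therefore stands for 1 gene trap line. CD11b+ cells were captured with magnetic beads from the brain without olfactory bulb and cerebellum, and each library came from 1 animal. The other 10 libraries came from 5 KO and 5 wildtype mice 6 h after LPS at 4 μg/g body weight. They serve below as a second measurement of genotype in other animals. Because they share one statistical fit with the baseline libraries, the low-count filter and every baseline SE and p also draw on them.

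DJ-1 is a small, conserved protein with a redox-sensitive cysteine, and its loss causes a recessive, early-onset form of Parkinson's disease. It has been linked to the handling of reactive oxygen, to mitochondrial upkeep, to the transcription factor NRF2 and to the detoxification of reactive aldehydes such as methylglyoxal. Microglia at rest survey the tissue, depend on signalling through the receptor CSF1R, and hold an identity programme that includes *P2ry12*, *Tmem119* and *Cx3cr1*. In bulk RNA, fewer cells of a type and less RNA per cell cannot be told apart.

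The baseline libraries held 14558136 to 22788884 counts, so that 3 counts in a library correspond to 0.139 to 0.197 CPM (counts per 1e6 counts, after TMM scaling of the libraries). This limit covers counting error only. After the removal of genes with low counts, 18739 genes were tested in one edgeR fit of all 19 libraries. "Well-counted" below means a mean of at least 100 counts over the 9 baseline libraries, which held for 11172 genes. Unless an exact test is named, "a p under 0.05" is the unadjusted p of edgeR's quasi-likelihood test. Mitochondrial genes took 0.184% to 0.439% of the counts. The mean log2 CPM of the oligodendrocyte markers ran from 4.22 to 6.85 between single libraries and overlapped between the groups, with the highest values in wildtype mouse 2 (6.85) and KO mouse 1 (6.27).

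*Park7* itself was read first, as a check of the labels. The counts of *Park7* (ENSMUSG00000028964, GRCm39 chromosome 4, 150981579 to 150998903, minus strand) were 30, 56, 9, 17 and 47 in the KO mice, against 484, 369, 322 and 331 in the wildtype mice. Every KO library lay far below every wildtype library, at 1.66 ± 0.962 CPM (SD, n = 5) against 22.3 ± 2.08 CPM (SD, n = 4). The log2FC was -3.74 (SE 0.40, 95% interval -4.58 to -2.90), and edgeR gave an adjusted p = 0.000389. *Park7* was the 1 gene of 18739 with an adjusted p under 0.05, and the adjusted p of every other gene at baseline was 1.

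The study's thresholds, an unadjusted p under 0.05 and a |log2FC| of at least 0.5, were passed by 150 genes, which is 0.8% of the genes tested. Of these, 42 were higher and 108 lower in KO. The split by counts was uneven, since 140 of the 150 genes had a mean under 100 counts, and 101 of those 140 were lower in KO. Among the 11172 well-counted genes, 10 passed, or 0.0895%, with 3 higher and 7 lower. A p under 0.05 at any fold was found for 195 genes (1.04%), and for 51 well-counted genes (0.456%), of which 34 were higher and 17 lower. The plot of log2FC against mean count shows this narrowing towards well-counted genes. The shares of 1.04% and 0.456% are both under what a p threshold of 0.05 would call with no gene different. Apart from *Park7*, these calls were therefore not shown to reflect genotype.

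**Figure D1:**
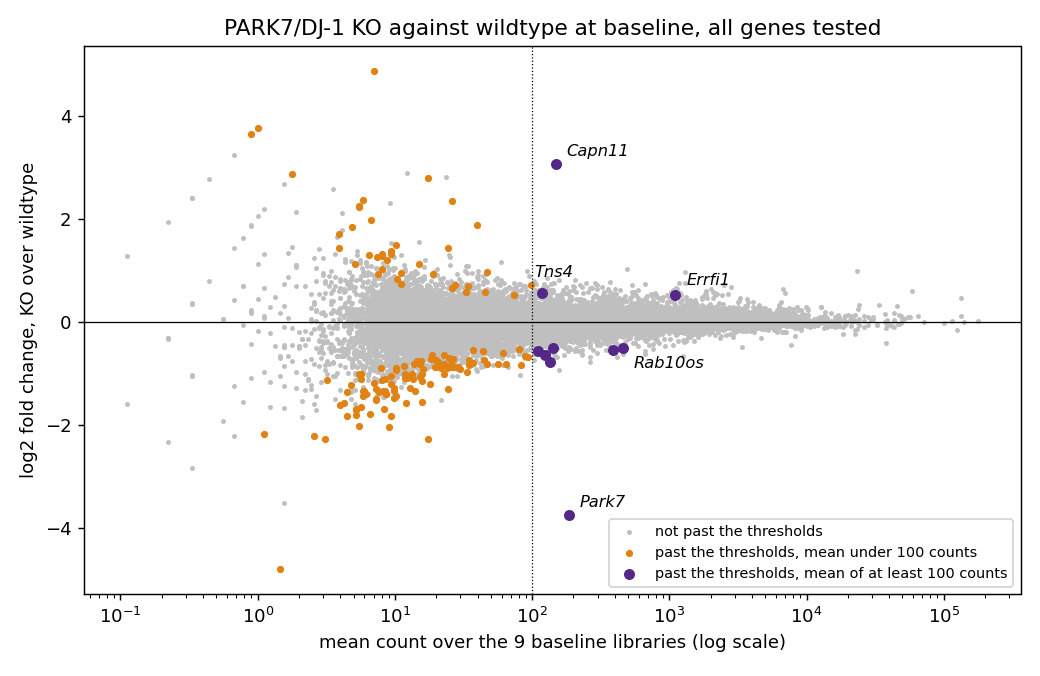
Log2 fold change of KO over wildtype mice at baseline (y) against the mean count over the 9 baseline libraries (x, log scale) for the 18739 genes tested. Orange points are the 140 genes past the study's thresholds with a mean under 100 counts, purple points the 10 with a mean of at least 100 counts, and the dotted line marks 100 counts.

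The fit also bounds what could have been missed. The SE of the log2FC had a median of 0.17 over the well-counted genes. The 95% interval of 6699 of them (60.0%) lay within a log2FC of 0.5 in either direction, and that of 9798 (87.7%) within 1. Over the other 7567 genes the median SE was 0.47, and the interval of 2162 (28.6%) lay within 1.

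No gene of the microglial identity programme had a p under 0.05. All 29 measured members were well counted, 13 had a log2FC above and 16 below 0, and the median was -0.0076, beside 0.012 over all well-counted genes. *Csf1r*, the receptor on which microglia depend, had a log2FC of 0.02 (SE 0.20). *Cx3cr1*, the fractalkine receptor, had -0.01, *P2ry12*, a purinergic receptor, -0.05, and *Tmem119*, a microglial membrane protein, -0.08. The 29 values ran from -0.16 to 0.17, and the 95% interval of each of the 29 lay within a log2FC of 1. The list of disease-associated microglia, which covers the lysosomal and lipid genes that microglia raise in neurodegeneration, likewise had 0 of 26 genes with a p under 0.05 by edgeR. Its median was 0.03, and *Trem2*, *Apoe* and *Cd9* had log2FC of 0.02, -0.13 and 0.04. The medians of both lists moved with single libraries and changed sign. Without wildtype mice 1 and 3, they were 0.24 and 0.20, and without KO mouse 1 and wildtype mouse 2, -0.15 and -0.09.

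Around the trapped gene, 47 other genes within 2 Mb were tested. Of these, 4 had a p under 0.05, or 8.51%, beside 1.1% of the other 999 genes of chromosome 4 and 1.04% of all genes. They were *Errfi1*, *Nphp4* and *Camta1*, higher in KO, and *Acot7*, lower in KO. After LPS, 2 of the 47 (4.26%) had a p under 0.05, beside 2.6% of the other genes of the chromosome, and these were *Tnfrsf9* and *Slc25a33*.

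*Errfi1* (ENSMUSG00000028967, chromosome 4, 150938376 to 150955402, plus strand) is a near neighbour of *Park7*, by these coordinates, and encodes a feedback inhibitor of the EGF receptor family. It had 63.3, 59.9, 78.3, 61.5 and 87.9 CPM in the KO mice and 51.7, 46.3, 46.0 and 52.7 CPM in the wildtype mice. All KO values were above all wildtype values, and such a lack of overlap, in either direction, held for 93 well-counted genes (0.832%). The log2FC was 0.51 (SE 0.17, 95% interval 0.16 to 0.87), with an exact two-sided permutation p of 0.00794. *Errfi1* was one of the 3 well-counted genes past the thresholds and higher in KO, and its p stayed under 0.05 in the 21 alternative fits. After LPS it stood at 121 ± 13.5 CPM (SD, n = 5) in KO against 112 ± 29.3 CPM (SD, n = 5) in wildtype mice, with a log2FC of 0.11 (SE 0.16). The difference between the 2 genotype effects had a p over 0.05.

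*Camta1*, a calmodulin-binding transcription activator whose nearer end, the 3′ end, lies 145075 bases from *Park7*, had a mean of 20.5 ± 2.56 CPM (SD, n = 5) in KO against 15.8 ± 4.01 CPM (SD, n = 4) in wildtype mice, with overlapping values. Its log2FC was 0.37 (SE 0.17) at baseline and 0.27 (SE 0.16) after LPS. Without wildtype mouse 1 the baseline value was 0.22 and the p over 0.05. *Acot7*, an acyl-CoA thioesterase, had a log2FC of -0.67 (SE 0.28), which without wildtype mouse 2 was -0.35 with a p over 0.05. *Nphp4*, a ciliary gene, had 0.71 (SE 0.33), and 0.53 with a p over 0.05 without wildtype mouse 1. The clock gene *Per3* and the vesicle gene *Vamp3*, also in this window, had log2FC of -0.16 and -0.24 with p over 0.05.

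*Tnfrsf9*, which encodes the costimulatory receptor CD137, starts head to head with *Park7*. The 115 bases between the annotated starts of both genes (GRCm39, chr4:150998904-150999018, plus strand) are shown because *Park7* was lower in KO at baseline and both genes were lower after LPS, and this is all that parts them. The *Park7* start is at its left end and reads leftwards, and the *Tnfrsf9* start is at its right end and reads rightwards. The capitals mark the 1 match to GGGCGG, searched with its reverse complement CCGCCC, which 32.3% of the 115-base stretches upstream of the 14469 protein-coding genes tested also hold. The stretch has a G and C content of 66.1% and 15 CpG dinucleotides.
Park7-Tnfrsf9: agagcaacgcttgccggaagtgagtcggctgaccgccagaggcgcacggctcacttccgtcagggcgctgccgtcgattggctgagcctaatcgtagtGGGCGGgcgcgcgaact

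At baseline *Tnfrsf9* was near the counting limit. Its counts were 2, 0, 0, 1 and 2 in KO against 3, 1, 3 and 7 in wildtype mice, which overlap, and the log2FC of -1.85 (SE 0.93) had a p over 0.05. In the LPS-treated mice it stood at 0.844, 1.14, 3.35, 0.559 and 0.577 CPM in KO and at 10.1, 11.2, 11.5, 29.6 and 20.7 CPM in wildtype mice. The groups were apart, with a log2FC of -3.67 (SE 0.53, adjusted p = 0.0129 by edgeR). The interaction of genotype and LPS had a p over 0.05, so the 2 effects were not shown to differ, and the depth at baseline does not allow the size of that effect to be told.

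**Figure D2:**
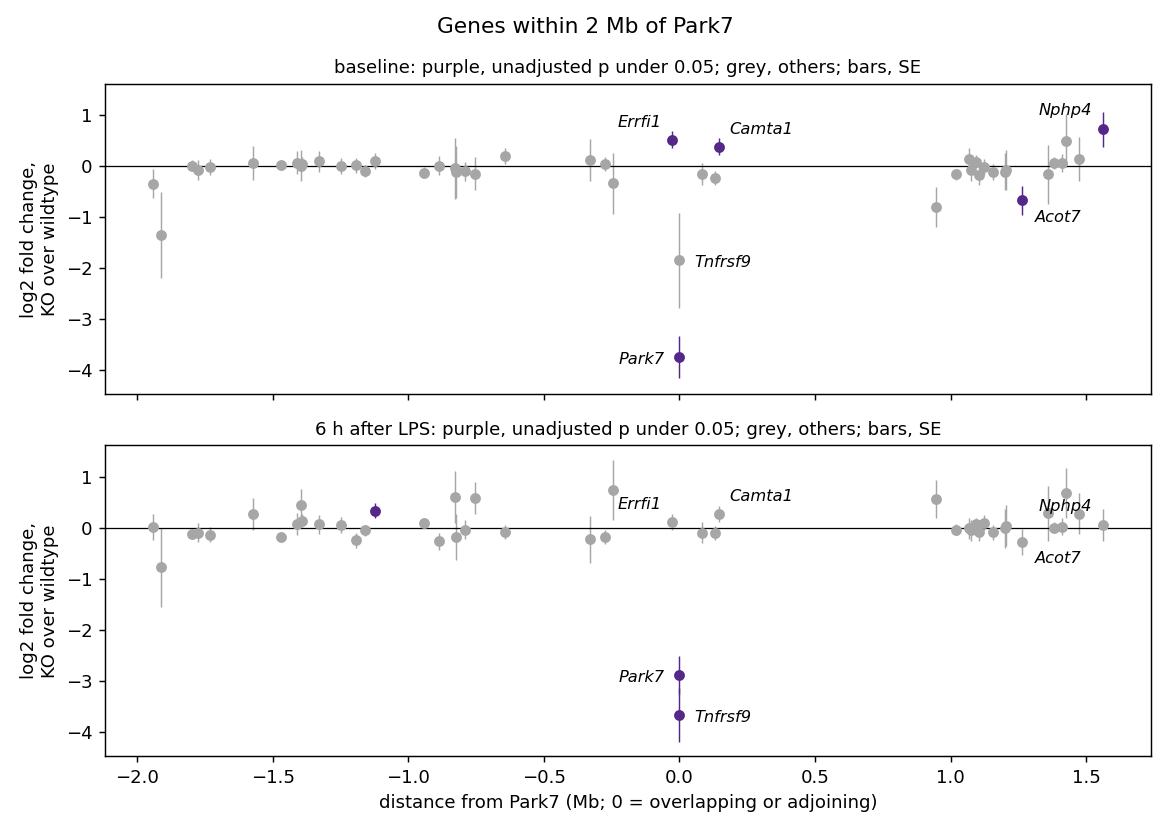
Log2 fold change of KO over wildtype (y) for *Park7* and the 47 other genes tested within 2 Mb, against the distance from *Park7* in Mb (x), at baseline (top) and 6 h after LPS (bottom). Bars are the SE, purple marks an unadjusted p under 0.05, and *Errfi1* is purple at baseline while *Tnfrsf9* is purple after LPS.

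Among the other well-counted genes past the thresholds, 2 were higher in KO. *Tns4*, a tensin of focal adhesions, had 6.32, 8.31, 6.15, 8.43 and 8.43 CPM in KO and 4.59, 4.12, 5.45 and 6.21 CPM in wildtype mice, with 1 wildtype value above the lowest KO value. Its log2FC was 0.56 (SE 0.20, exact permutation p = 0.0317), and after LPS 0.28 (SE 0.19). The counts of *Capn11*, a calpain protease known from testis, were 150, 440, 342, 0 and 302 in KO against 1, 91, 5 and 2 in wildtype mice. It was thus at 91 counts or more in 5 of the 9 mice, 4 of them KO, and at 5 or fewer in the other 4. The log2FC was 3.07 (SE 1.2, exact permutation p = 0.119). It was 6.23 without wildtype mouse 2, and without wildtype mouse 1, 3 or 4 it was 2.66 to 2.74 with an edgeR p over 0.05. In the 10 LPS-treated mice no library exceeded 1.26 CPM of *Capn11*, and the log2FC there was 0.01.

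Of the 6 well-counted genes other than *Park7* that were lower and past the thresholds, 5 are not annotated as protein-coding. *Rab10os* (ENSMUSG00000079179, chromosome 12, 3285055 to 3301677, plus strand), a long noncoding RNA named for the strand opposite *Rab10*, had 18.5, 22.4, 18.7, 28.0 and 20.3 CPM in KO and 27.9, 31.0, 28.8 and 36 CPM in wildtype mice. KO mouse 4 stood just above the lowest wildtype value, and the other 4 KO mice lay below all wildtype mice. The log2FC was -0.52 (SE 0.14, exact permutation p = 0.0238), and the edgeR p stayed under 0.05 in the 21 alternative fits. After LPS it pointed the other way, at 0.26 (SE 0.13). Whether reads were counted by strand is not given in the sources used here, so reads of *Rab10os* and *Rab10* might not be told apart. *Rab10* itself had a log2FC of 0.04 (SE 0.12).

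*Snhg5*, a snoRNA host gene, had 6.38, 6.70, 5.44, 6.70 and 8.27 CPM in KO and 10.2, 9.46, 8.15 and 10.4 CPM in wildtype mice, with 1 KO value just inside the wildtype range. Its log2FC was -0.51 (SE 0.22, exact permutation p = 0.0238). The others were the snRNA gene *Gm22513* (-0.64), the scaRNA gene *Gm22009* (-0.54), *Gm45546* (-0.77), a transcript of the annotation class TEC, and *Leng9* (-0.57), a protein-coding gene. Each of these 5 lost a p under 0.05 when certain single mice were left out, among them wildtype mouse 2 for all 5. After LPS, *Gm22009* was again lower with a p under 0.05 (log2FC -0.52), and the other 4 had p over 0.05.

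Of the well-counted genes, 8 were small noncoding RNAs other than ribosomal ones (snRNA, scaRNA, snoRNA, miRNA and the 7SK RNA), a group formed after these values were seen and not tested as one. All 8 had a log2FC below 0, and the median was -0.43, beside 0.012 over all 11172 well-counted genes. A p under 0.05 was found for 4 of them, namely *Gm22513*, *Gm22009*, *Gm22442* and *Rn7sk*, beside 0.456% of all well-counted genes. *Gm22513* lost it in 4 and *Gm22009* in 7 of 21 alternatives, among them the fits without wildtype mouse 2 or 4. *Rn7sk*, the RNA that holds the elongation factor P-TEFb inactive, had 1842 ± 220.0 CPM (SD, n = 5) in KO against 2464 ± 291 CPM (SD, n = 4) in wildtype mice, without overlap, and a log2FC of -0.42 (SE 0.19). Among 301 long noncoding RNAs, 30.2% had a log2FC above 0, beside 56.0% of 10625 protein-coding genes, with medians of -0.08 and 0.014. After LPS, 6 of the 8 small RNAs were below 0, with a median of -0.14, and the long noncoding RNAs had a median of 0.0089.

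The nuclear-encoded subunits of oxidative phosphorylation, which build the respiratory chain and ATP synthase, had a log2FC above 0 in 68 of 79 genes, beside 50.7% of all genes tested and 55.1% of the well-counted ones. Their median was 0.12, beside 0.0023 over all genes tested. A p under 0.05 was found for 4 of the 79, beside 1.04% of all genes, all higher in KO, and none of the 4 reached a log2FC of 0.5. *Uqcrh*, the hinge subunit of complex III, had 26.1, 27.3, 27.4, 23 and 22.5 CPM in KO and 17.8, 23.8, 18.2 and 19.5 CPM in wildtype mice. Wildtype mouse 2 lay among the KO mice, and the other 3 lay below all of them. The log2FC was 0.35 (SE 0.14, exact permutation p = 0.0397).

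*Uqcrh* was also higher in the LPS-treated KO mice with a p under 0.05 and the same log2FC of 0.35 (SE 0.13). *Atp5mc1*, which encodes a ring subunit of ATP synthase, had 32.7 to 38.9 CPM in KO and 24.0, 31.4, 24.0 and 34.5 CPM in wildtype mice, with a log2FC of 0.35 (SE 0.14) at baseline and 0.02 after LPS. The complex I subunits *Ndufb1* and *Ndufa6* had log2FC of 0.35 and 0.28, and after LPS 0.20 and -0.13. *Ndufb1* lost a p under 0.05 in 10 and *Ndufa6* in 12 of 21 alternatives, and *Uqcrh* and *Atp5mc1* did so in 3 each, among them the fit without wildtype mice 1 and 3, where the log2FC were 0.23 and 0.15. The ATP synthase subunits *Atp5f1b* and *Atp5f1a* and the complex II subunit *Sdha*, all abundant by CPM, had smaller values of 0.15, 0.14 and 0.18 and p over 0.05. After LPS the median of the 79 genes was 0.0091.

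The median depended on 2 wildtype mice. The mean log2 CPM of the 79 genes was 4.48, 4.47, 4.40, 4.41 and 4.34 in the KO mice and 4.14, 4.48, 4.16 and 4.38 in the wildtype mice. Wildtype mice 1 and 3 stood below all others, wildtype mouse 4 stood among the KO mice, and wildtype mouse 2 was level with the highest KO mouse. Without wildtype mice 1 and 3 the median log2FC was 0.0059. Both libraries had the lowest level of mitochondrially encoded mRNAs (5.84 and 6.04, beside 6.23 to 7.18 in the rest). All 7 tested mRNAs of the mitochondrial genome had a log2FC above 0, from 0.21 for *mt-Nd6* to 0.49 for *mt-Nd2*, both subunits of complex I, with a median of 0.29. None had a p under 0.05, and the median was -0.04 without the 2 mice. Wildtype mouse 1 was also lowest of the 9 for astrocyte markers (5.05, beside 7.44 in wildtype mouse 2), and the part of other cells' RNA in these values was not tested.

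Cytosolic ribosomal proteins gave 73 of 79 log2FC above 0 with a median of 0.24. No member was higher with a p under 0.05. *Rps4x* and *Rplp0*, both abundant members, had log2FC of 0.39 (SE 0.26) and 0.34 (SE 0.25). The mean log2 CPM of the list was 6.38, 6.65, 6.26, 5.70 and 5.67 in KO and 6.20, 5.94, 6.10 and 5.67 in wildtype mice. The groups overlapped over most of their range, and without KO mouse 2 the median log2FC was 0.06. Mitochondrial ribosomal proteins were evenly split, with 41 of 77 above 0 and a median of 0.0092. A p under 0.05 was found for 3 of them, beside 1.04% of all genes tested. These were *Mrps18c*, *Mrpl46* and *Mrpl22*, all lower in KO and with means under 100 counts. Of all 7567 genes tested with such means, 144 had a p under 0.05, and 105 of these were lower.

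**Figure D3:**
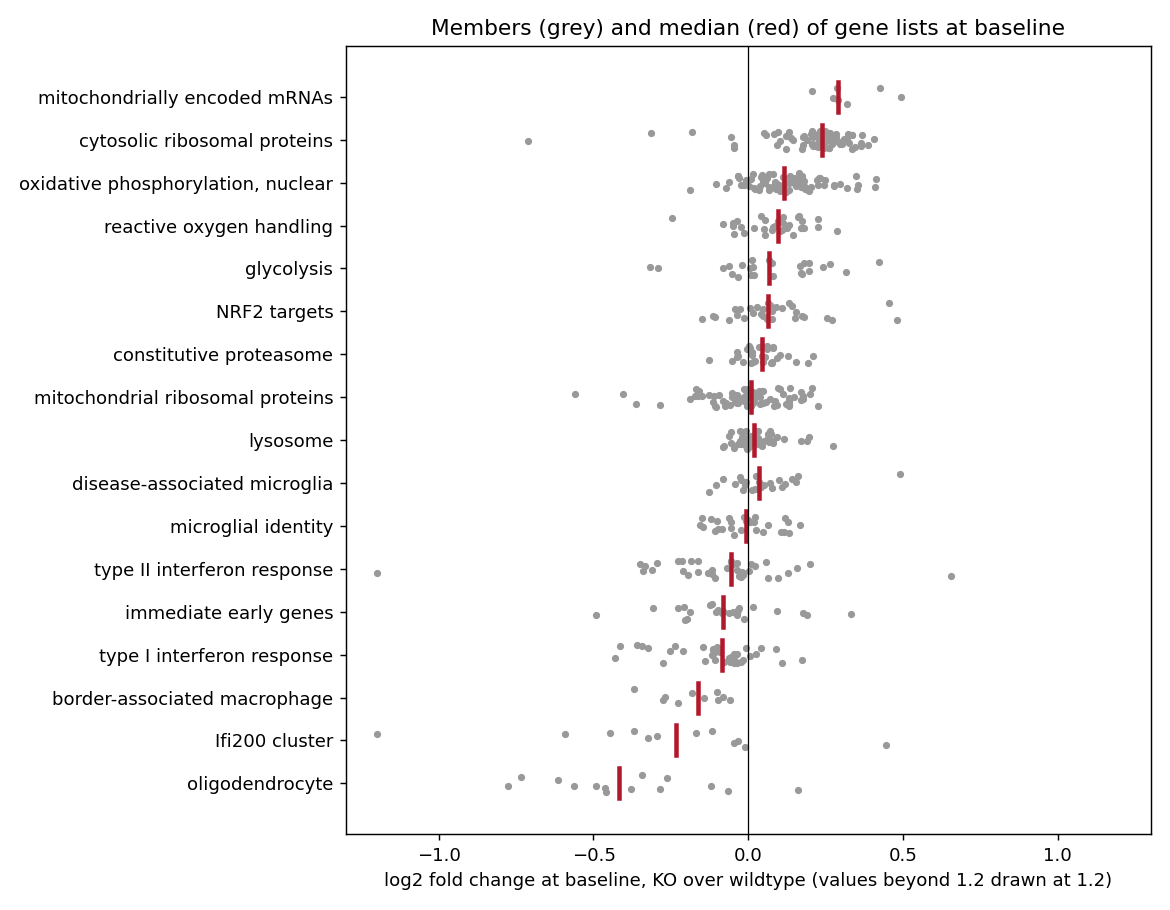
Log2 fold change of KO over wildtype at baseline (x) for the members of 17 gene lists (rows, grey points), with the median of each list in red. The medians run from 0.29 for mitochondrially encoded mRNAs to -0.42 for oligodendrocyte markers, and those of microglial identity (-0.0076) and mitochondrial ribosomal proteins (0.0092) lie close to 0.

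Of the systems tied to DJ-1, the 31 NRF2 targets, which include the inducible antioxidant genes, held 0 genes with a p under 0.05 by edgeR. Their median was 0.06, with 23 of 31 above 0. *Hmox1*, heme oxygenase, had a log2FC of 0.01 (SE 0.24), and *Nfe2l2*, which encodes NRF2, 0.0046 (SE 0.15). Of 33 genes of reactive oxygen handling, 25 were above 0, the median was 0.10, and none had a p under 0.05. Superoxide dismutase *Sod2* had 0.29 (SE 0.24) and the peroxiredoxin *Prdx2* 0.23 (SE 0.13). None of the 16 genes of glyoxal and aldehyde detoxification had a p under 0.05 either, with *Glo1*, the methylglyoxal-clearing glyoxalase, at 0.18 (SE 0.17) and *Akr1a1*, an aldehyde reductase, at 0.22 (SE 0.16). Of the 30 genes of Parkinson's disease, *Park7* was the 1 with a p under 0.05, and *Pink1* had 0.17 (SE 0.40) and *Lrrk2* 0.59 (SE 0.38). Glycolysis (25 genes), the proteasome (33), the lysosome (51) and autophagy (43) had medians of 0.07, 0.04, 0.02 and 0.04, with 0 genes with a p under 0.05 by edgeR. The 95% interval of 32 of the 33 proteasome genes and of 43 of the 51 lysosome genes lay within a log2FC of 0.5.

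Of 38 interferon-stimulated genes of the type I response, 6 had a log2FC above and 32 below 0, beside 50.7% above 0 over all genes tested. The median was -0.09, and *Oas2* was the 1 gene with a p under 0.05, beside 1.04% of all genes tested. *Oas2*, an antiviral oligoadenylate synthetase, had 5.52, 3.93, 5.69, 5.87 and 4.32 CPM in KO and 6.36, 6.61, 5.72 and 8.63 CPM in wildtype mice. The groups overlapped at 1 value, and the log2FC was -0.43 (SE 0.19, exact permutation p = 0.0317). Without wildtype mouse 4 it was -0.29 with a p over 0.05. *Irf7*, the factor that drives the response, had -0.34 (SE 0.18) and *Oas1a* -0.41 (SE 0.23), both with p over 0.05, as did *Mx1*, *Ifit2* and *Ifit1* at -0.01, 0.0050 and 0.17.

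Of 12 tested genes of the Ifi200 cluster, a family of interferon-induced DNA sensors, 11 were below 0, with a median of -0.23. The member with a p under 0.05 was *Ifi214*, which was counted 1, 1, 5 and 6 times in the wildtype mice and not at all in the 5 KO mice. These lie at the counting limit, so no fold is given, and after LPS *Ifi214* had a log2FC of -0.60 with a p over 0.05. Of 38 genes of the type II response, 28 were below 0, with a median of -0.06, and 1 had a p under 0.05, beside 1.04% of all genes tested. *Cxcl9*, a chemokine induced by interferon-gamma, passed the thresholds with a log2FC of -2.28 (SE 0.73), on counts of 4, 7, 13, 10 and 2 in KO against 4, 99, 14 and 5 in wildtype mice, which overlap (exact permutation p = 0.302). Without wildtype mouse 2, which held the 99 counts, the log2FC was -0.30. By qPCR with further male and female mice, the study reported lower *Cxcl9* and *Ifi214* and higher *Mefv* in KO at baseline. The antigen presentation genes *Ciita*, *H2-Ab1* and *H2-Aa* had -0.33, -0.23 and -0.22 with p over 0.05.

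In the LPS-treated mice the medians of the type I, Ifi200 and type II lists were -0.21, -0.25 and -0.29, with 5, 1 and 7 genes lower in KO at a p under 0.05 and 1 gene of the type II list higher. *Irf7* and *Ciita* were among those lower, at -0.47 and -0.83. Over the well-counted genes alone, 289 had a p under 0.05 after LPS (2.59%). The lists are not limited to such genes, with 27 of 38, 5 of 12 and 29 of 38 members well counted. The mean log2 CPM of the type I list at baseline was 3.85, 3.53, 3.48, 3.67 and 3.47 in KO and 3.76, 3.68, 3.57 and 3.80 in wildtype mice. KO mouse 1 was the highest of all 9, and 3 KO mice were below all wildtype mice. Without KO mouse 1 and wildtype mouse 2, the libraries with most oligodendrocyte, astrocyte and endothelial marker RNA, the medians of the type I and type II lists were -0.21 and -0.19. Without wildtype mouse 1 they were -0.04 and 0.0035.

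**Figure D4:**
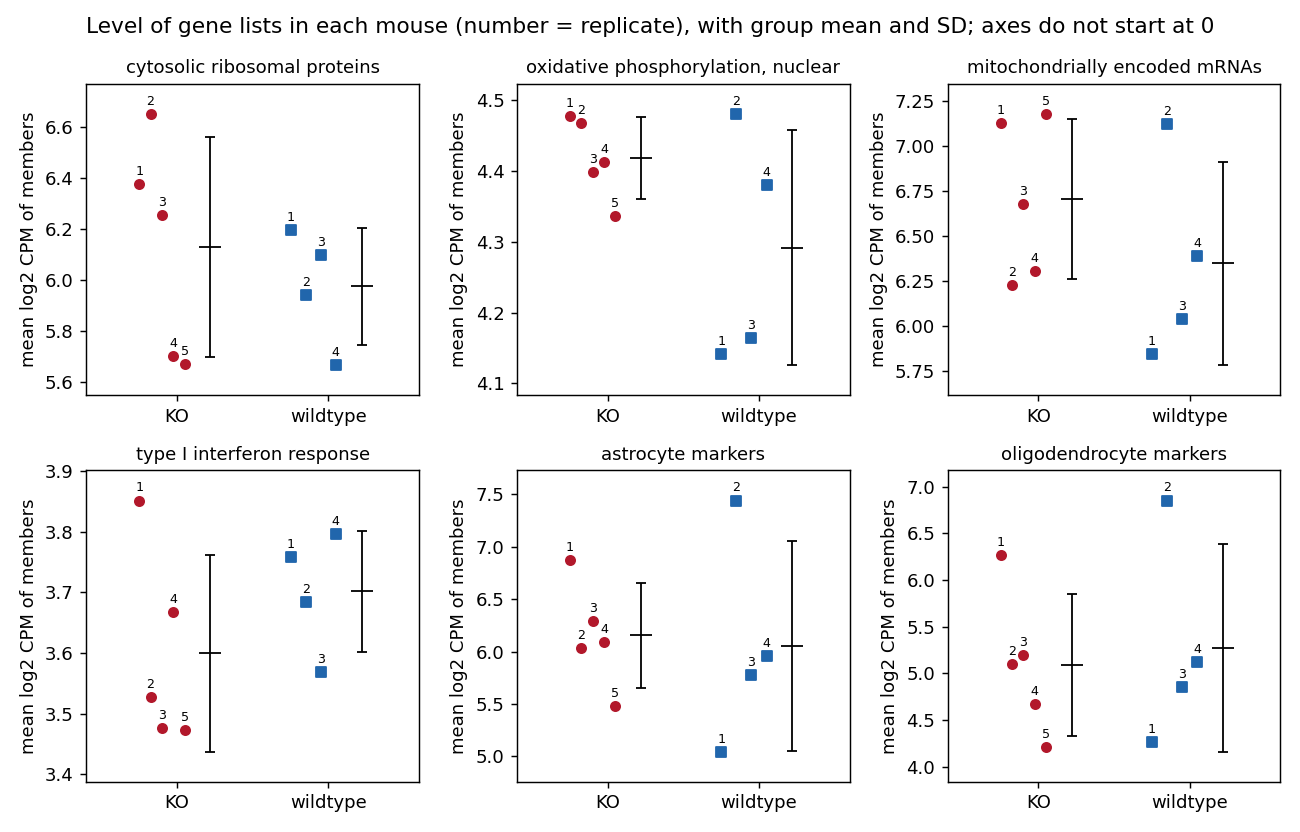
Mean log2 CPM of the members of 6 gene lists (y, axes not starting at 0) in each of the 5 KO (red circles) and 4 wildtype mice (blue squares) at baseline, numbered by replicate, with the group mean and SD in black. The groups overlap in every panel, wildtype mice 1 and 3 are lowest for both mitochondrial lists, and wildtype mouse 2 is highest for astrocyte and oligodendrocyte markers.

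Inflammatory lists held few genes with a p under 0.05, which 1.04% of all genes tested had. None of 25 cytokines and chemokines did (median -0.08), with *Tnf* at -0.16, *Il1b* at 0.40 and *Il1a* at -0.02, and none of 35 genes of Toll-like receptor and NF-kappaB signalling did (median -0.02). Of 14 inflammasome genes, *Mefv*, which encodes pyrin, passed the thresholds. Its counts were 11, 16, 8, 21 and 17 in KO against 6, 0, 2 and 10 in wildtype mice, with 1 KO count inside the wildtype range, and the log2FC was 1.49 (SE 0.54, exact permutation p = 0.0238). After LPS it was at -0.25 (SE 0.36). *Nlrp3* and *Casp1* had 0.03 and -0.04. Of 22 complement genes, *Cfp*, which encodes properdin, was lower with a p under 0.05 (log2FC -0.37, SE 0.17), and without wildtype mouse 4 it was -0.19 with a p over 0.05. Of 25 immediate early genes, which respond to cell handling, 20 were below 0 with a median of -0.08, and *Fos*, *Jun* and *Egr1* had -0.19, -0.23 and -0.10, with p over 0.05.

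Markers of other cells were read in every library. Oligodendrocyte markers had a log2FC below 0 in 13 of 14 genes with a median of -0.42, and none had a p under 0.05. Their summed level ran from 1187 to 7827 CPM in KO and from 1147 to 10362 CPM in wildtype mice. Without wildtype mouse 2 the median was 0.32, so 1 library set its direction. Choroid plexus and ependymal markers, which include *Ttr*, had a median of 0.44 with 8 of 10 above 0, no p under 0.05, and summed levels of 3585 to 15690 CPM in KO and 2162 to 12238 CPM in wildtype mice. None of these markers was at 0 in all 9 libraries, and the part of such RNA in the values above was not tested.

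All 10 markers of border-associated macrophages, the CD11b+ macrophages of meninges and vessels, had a log2FC below 0, with a median of -0.16 and no p under 0.05. *Mrc1*, the mannose receptor, had -0.10 (SE 0.21) and *Siglec1* -0.28 (SE 0.24). Their summed level was 2151 to 2508 CPM in KO and 2243 to 2651 CPM in wildtype mice. Markers of T and NK lymphocytes were low in both groups, with 8 of 16 tested and 1 well counted, at a log2FC of -0.03. Their summed level was 11.97 to 14.2 CPM in KO and 14.5 to 15.9 CPM in wildtype mice, which do not overlap. No other gene list examined lacked overlap, so this case was seen among many lists. The median log2FC of the 8 tested markers was -0.61 at baseline and -0.98 after LPS, where 2 of the 8 were above 0. After LPS, 2 of the 8 markers were lower and 1 higher in KO with a p under 0.05, beside 2.59% of well-counted genes. That share is a rough match, since only 1 of the 8 markers is well counted. *Klrd1*, an NK cell receptor, had a log2FC of -0.66 (SE 0.32) at baseline with a p over 0.05, and 1.08 (SE 0.42) after LPS. *Prf1*, perforin, had -1.32 (SE 0.69) with a p over 0.05, on counts of 5, 4, 2, 3 and 2 in KO against 15, 4, 1 and 10 in wildtype mice.

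Other well-counted genes with a p under 0.05 had folds under the threshold, and the following were chosen after their values were seen. *Pdk3*, a kinase that shuts off pyruvate dehydrogenase, had 22.1 ± 0.737 CPM (SD, n = 5) in KO against 16.9 ± 2.55 CPM (SD, n = 4) in wildtype mice, without overlap, and a log2FC of 0.39 (SE 0.12), but 0.02 after LPS. *Hint1*, a nucleotide hydrolase, had 17.7 to 22.2 CPM in KO and 13.1 to 16.2 CPM in wildtype mice, again without overlap, with a log2FC of 0.39 (SE 0.15) and of 0.26 (SE 0.14) after LPS. *Smc6*, of the SMC5/6 genome maintenance complex, had 49.4 to 54.3 CPM in KO and 40.8 to 49.0 CPM in wildtype mice and a log2FC of 0.20 (SE 0.08), which was -0.01 after LPS. *Bag1*, a co-chaperone, and *Zfp106*, a zinc finger gene, had 0.37 and 0.27, and both lost a p under 0.05 in certain alternatives.

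**Figure D5:**
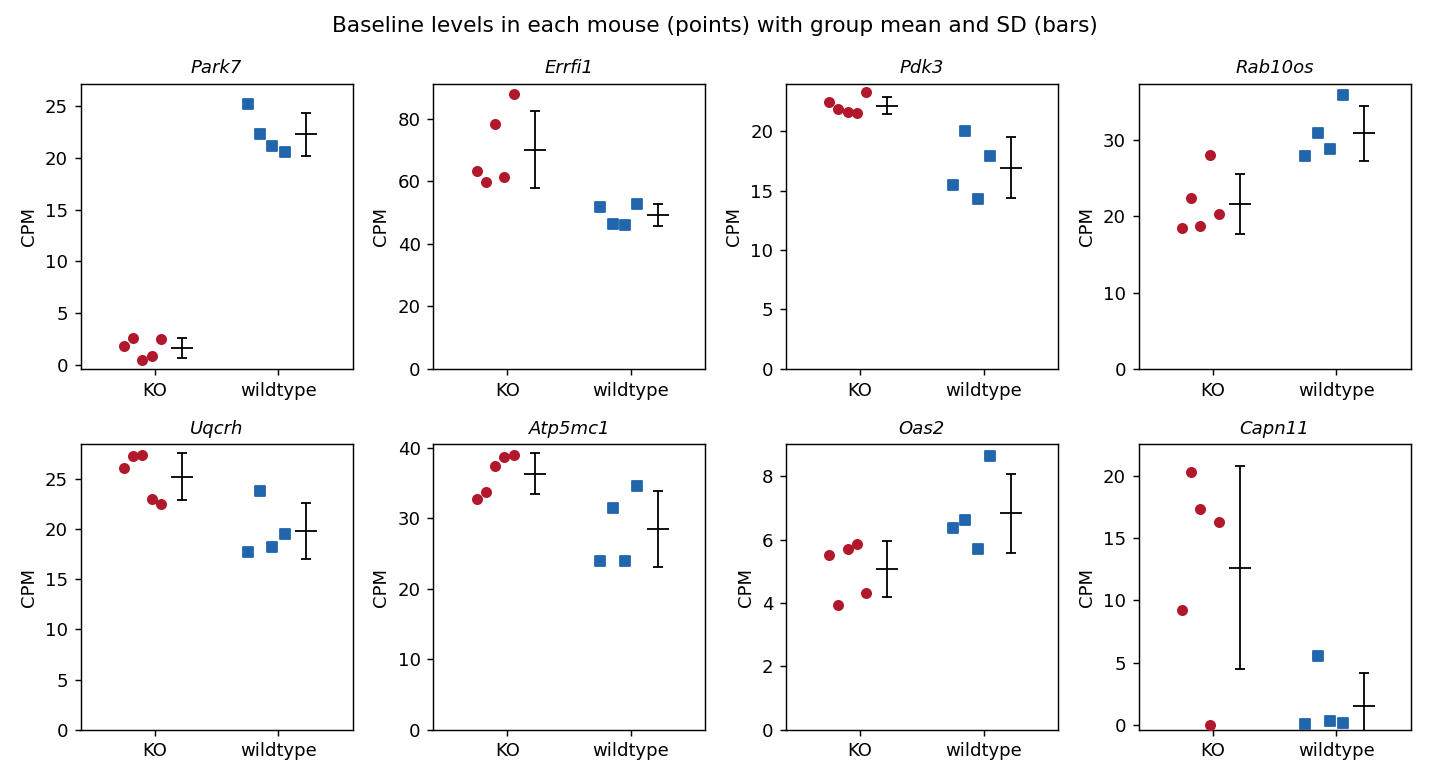
CPM (y) of 8 genes in each of the 5 KO (red circles) and 4 wildtype mice (blue squares) at baseline, with the group mean and SD in black. *Park7*, *Errfi1* and *Pdk3* do not overlap between the groups, the *Uqcrh*, *Atp5mc1*, *Oas2* and *Rab10os* values do, and *Capn11* is near 0 in 1 KO and 3 wildtype mice.

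The LPS-treated mice gave a second reading of genotype in other animals. Of the 50 well-counted genes with a p under 0.05 at baseline, *Park7* left out, 41 had the same sign after LPS, beside 58.7% of all 11171 well-counted genes. A p under 0.05 after LPS, beside 2.59% of well-counted genes, was found for 5 of the 50, all 5 with the same sign. They were *Uqcrh*, *Zfp106*, *Usp9x* and *Fam199x*, higher in KO, and *Gm22009*, lower. Of the 9 well-counted genes past both thresholds, 7 had the same sign. In the interaction contrast of all 18739 genes, 0 had an adjusted p under 0.05 by edgeR, and 180 (0.961%) an unadjusted one.

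A permutation test of log2 CPM, two-sided and exact, was run over the 9 mice for 210 named genes. The smallest p that 5 against 4 mice allow is 0.00794, which *Park7*, *Errfi1* and *Ifi214* reached among the 210 (adjusted exact p = 0.556). No gene passed the adjustment, and a few genes at that smallest p, *Park7* included, could not have passed it. The adjusted test therefore decides nothing about single genes. Some of the 210 were named by their edgeR p in the same mice, so their exact p is not separate support. The exact p of *Pdk3*, *Hint1*, *Smc6*, *Atrx* and *Usp9x*, left out of the adjustment, was also 0.00794.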

How the data were processed

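The authors made stranded total RNA libraries after ribosomal depletion and sequenced paired-end reads. The submitters' processing notes name cutadapt 0.17.4 and STAR 2.7.9a, and the methods name GRCm39 with an Ensembl annotation. The strand setting of the counting is not given in the sources used here. The deposited values are raw counts per Ensembl gene, for 56980 genes and 19 mice, not normalised by the authors. GENCODE M39 on the same build named 56236 of them.

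From these, edgeR 4.0.16 in R 4.3.3 was used with filterByExpr (minimum count 10, minimum total 15), TMM and one quasi-likelihood fit of 4 groups, with the contrasts KO minus wildtype at baseline, after LPS, and their difference. The SE is the log2FC divided by the square root of F, and 95% intervals use the t distribution of the fit. Benjamini-Hochberg adjustment ran over all genes tested. Log2 CPM used a prior count of 2. Libraries of a group differed beyond sampling noise (chi-square per degree of freedom at least 6.50), so each is 1 replicate. The code was tested on simulated counts.

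Genes named were *Park7* and its neighbours within 2 Mb, well-counted genes past the thresholds (up to 10 per direction), list members that were well counted with a p under 0.05 or among the 4 highest by CPM, the genes the study's text names for this comparison, *Xist*, and markers past the thresholds. Members, lists and tests were chosen with earlier results of these data known. Lists are described, not tested, and some members are not reported here. DESeq2 1.42.0 served as an alternative only. Other alternatives varied the low-count filter, the scaling, the libraries in the fit, covariates (replicate block, animal number, other-cell markers) and the count level called well-counted, and left out each mouse in turn.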

Additional observations from a re-analysis of the deposited data

Results flagged for a closer look

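Within a group, 1 mouse stood apart by Dixon's criterion in 4 of the 82 sets of values examined, and chance flags about 1 in 20. *Capn11* in wildtype mice was high in mouse 2 alone (5.52 CPM). *Cxcl9* in wildtype mice was high in mouse 2 (6.00 CPM). *Zfp106* in wildtype mice was high in mouse 2 (264 CPM), and *Ndufa6* in KO mice was low in mouse 5 (12.9 CPM).

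The effect of genotype differed between baseline and LPS, by the interaction contrast of edgeR without adjustment, for 5 of the 26 genes examined, beside 0.961% of all genes. Most of the 26 were named for their baseline call, so a smaller effect after LPS is partly built into the choice. The p was 0.000828 for *Rab10os*, 0.00431 for *Ifi214*, 0.0152 for *Mefv*, 0.0347 for *Ndufa6* and 0.0479 for *Cxcl9*. None had an adjusted p under 0.05 over all genes, and *Cxcl9* and *Ifi214* rest on the counts given above.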

How the results depend on the processing

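*Park7* kept its direction and a p under 0.05 in all 20 alternative fits that held it, with log2FC between -3.96 and -3.49. Its adjusted p was 0.0604 in edgeR with the 9 baseline libraries alone, and the filter of 10 counts in every library removed it, so that 0 genes had an adjusted p under 0.05 in both. Genes past the thresholds, higher and lower in KO, numbered 241 and 439 without the low-count filter, 6 and 52 with at least 10 counts in every library, 113 and 188 with the markers of other brain cells as a covariate, 90 and 209 without wildtype mice 1 and 3, and 73 and 122 at any fold. Lower genes numbered 214 with the animal number as a covariate, and higher genes 74 without KO mouse 1 and wildtype mouse 2. With each mouse left out once, 30 to 94 genes were higher and 67 to 153 lower.

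Well-counted genes past the thresholds, 3 higher and 7 lower, numbered 1 higher with at least 10 counts in every library, 30 and 15 with the marker covariate, 29 and 37 without wildtype mice 1 and 3, 11 higher without KO mouse 1 and wildtype mouse 2, 5 and 14 at a mean of 50 counts, 1 and 0 at 500, and 34 and 17 at any fold. Lower genes numbered 13 in DESeq2 and 14 in edgeR with the 9 libraries, and 17 with the animal number. Leaving out each mouse gave 1 to 20 higher and 2 to 12 lower, the 20 being without wildtype mouse 2. The cause was not tested.

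Under a replicate block, lower genes rose to 189, of which 14 were well counted. The labels do not say whether the number pairs animals. Deviations of same-numbered mice correlated at -0.29 to 0.30 over 4 pairs, too few to settle it.

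The medians of the 14 lists recomputed under the alternatives moved by less than the spread between mice, except disease-associated microglia (0.20 without wildtype mice 1 and 3) and the type II response (-0.19 without KO mouse 1 and wildtype mouse 2). That spread, the pooled SD of the mean log2 CPM of a list, is a wide measure. Within it, the oligodendrocyte median went from -0.42 to 0.32 without wildtype mouse 2. The median of microglial identity changed sign in 11 of 21 alternatives. *Xist*, past the thresholds with a log2FC of -2.03 in the main fit, reversed without wildtype mice 1 and 3 (log2FC 0.27). With mitochondrial genes left out, the mitochondrially encoded list has no value. The fits without these pairs of mice were chosen after seeing the data. With 5 against 4 mice, changes near 0.5 on the log2 scale in genes under 100 counts were mostly not resolved.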

Other observations

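X-linked genes made up 10 of the 51 well-counted genes with a p under 0.05, a group formed after the values were seen. Of 340 well-counted genes of the X chromosome, 10 (2.94%) had a p under 0.05 at baseline, beside 0.456% of all well-counted genes, and 9 of the 10 were higher in KO. They were *Pdk3*, *Ap1s2*, *Atrx*, *Prps1*, *Brwd3*, *Pola1*, *Syap1*, *Usp9x* and *Fam199x*, with *Cfp* the 1 that was lower. The median log2FC of the 340 genes was 0.06, beside 0.012 over all well-counted genes, and 68.8% were above 0. The mean log2 CPM of X-linked genes less that of autosomal genes was -0.09, -0.03, -0.07, -0.08 and -0.08 in the KO mice and -0.15, -0.11, -0.13 and -0.14 in the wildtype mice, without overlap. After LPS the same difference was -0.46 to -0.24 in KO and -0.39 to -0.28 in wildtype mice, which overlap. Of the 340 genes, 11 were then higher and 1 lower in KO at a p under 0.05, beside 2.59% of all well-counted genes.

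*Xist*, the RNA of the inactive X chromosome, was counted 5, 3, 6, 3 and 4 times in KO against 17, 1, 38 and 5 times in wildtype mice, all labelled male. In the LPS-treated mice it stood at 0.215 ± 0.145 CPM (SD, n = 5) in KO against 0.708 ± 0.582 CPM (SD, n = 5) in wildtype. At baseline the Y-linked genes *Ddx3y*, *Uty* and *Kdm5d* had log2FC of 0.06, 0.05 and -0.04. The 2 wildtype mice with the most *Xist* counts, 1 and 3, were those with the lowest levels of oxidative phosphorylation genes.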
